A study of Mus musculus with 24 samples.

Results

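The genes described here are the replication-dependent histone genes of the mouse, taken as every gene of the deposited table whose symbol begins with Hist1h, Hist2h, Hist3h or Hist4h. The rule found 68 of the 15582 genes used. They comprised 6 genes of linker histone H1, 18 of H2A, 19 of H2B, 12 of H3 and 13 of H4. In the GENCODE M21 annotation of build GRCm38, 54 lie in the Hist1 cluster on chromosome 13, 10 are in Hist2 (chr3:96219865-96270132), 3 in Hist3 (chr11:58948920-58956830) and 1, Hist4h4, at chr6:136801553-136804415. The Hist1 cluster falls into a proximal block of 23 genes (chr13:21715763-22043676) and a distal block of 31 (chr13:23531050-23934851). All but 1 of the 68, Hist3h2bb-ps, are annotated as protein coding.

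Liver RNA came from male mice of the hybrid strain B6C3F1 aged 4 weeks whose drinking water held dichloroacetic acid (DCA), which forms when water is chlorinated. The groups were 0 g/L (control), 1 g/L, 2 g/L and 3.5 g/L, each with 6 libraries, after 6 days. Each library was made from frozen tissue of mixed lobes with a stranded kit that removes ribosomal RNA and does not select for poly(A) tails. The comparisons ask how a dose changed the liver transcriptome, and all 3 comparisons with control share the same 6 control libraries. Whether each library is a separate mouse is not said in the labels, and p-values refer to the spread among the libraries, which may be technical.

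Replication-dependent histone genes supply the histones that package newly made DNA, and in dividing cells their mRNAs accumulate in S phase. They have no introns as a rule. Their mRNAs normally end in a conserved stem-loop in place of a poly(A) tail, and a stem-loop binding protein and the U7 small nuclear RNA act in the cut that makes this end. H2A, H2B, H3 and H4 form the nucleosome core, and H1 binds the linker DNA. Replication-independent variants, such as H3.3 from H3f3a and H3f3b, are made from ordinary polyadenylated mRNAs. Some of the clustered genes, Hist1h1c and Hist1h2bc among those known for it, can also give polyadenylated transcripts in cells that do not divide.

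The stem-loop sets these mRNAs apart, so it is shown first for genes of each class that the results turn on. The pattern searched was GG, 2 free letters, CTTTT, 1 free letter, AG, 2 free letters and CC, on the coding strand in the first 100 bases after the stop codon of GENCODE M21 transcripts. It was found in 44 of the 67 coding genes, beginning 22 to 59 bases after the stop codon. Of the 50 genes with at least 50 annotated bases there, 44 held it, and of the 17 with fewer none could be searched in full and none did. Among 19810 other genes with such a window 3 held it (0.0151%). They were H2afx and H2bfm, which have histone symbols, and Lrrc75b. Capitals mark the stem-loop and the flanks are 5 bases each.
Hist1h1c (chr13:23739507-23739532, + strand): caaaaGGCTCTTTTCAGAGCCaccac
Hist1h1d (chr13:23555782-23555807, + strand): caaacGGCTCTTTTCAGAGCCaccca
Hist1h1e (chr13:23621777-23621802, - strand): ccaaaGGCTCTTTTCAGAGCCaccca
Hist2h2ac (chr3:96220413-96220438, - strand): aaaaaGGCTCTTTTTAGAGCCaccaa
Hist1h2bb (chr13:23747198-23747223, + strand): ccaaaGGCTCTTTTAAGAGCCaccca
Hist1h3e (chr13:23561898-23561923, - strand): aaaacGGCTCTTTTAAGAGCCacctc
Hist1h4b (chr13:23757361-23757386, + strand): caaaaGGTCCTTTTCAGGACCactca
Hist1h4h (chr13:23531453-23531478, + strand): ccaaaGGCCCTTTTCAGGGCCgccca
Hist4h4 (chr6:136803993-136804018, - strand): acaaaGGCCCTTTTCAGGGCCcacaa
The form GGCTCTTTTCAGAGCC was the most frequent, in 26 genes. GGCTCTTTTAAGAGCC stood in 6 genes and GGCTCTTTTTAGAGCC in 1. The 11 H4 genes with a stem-loop all had another pair of stem bases, as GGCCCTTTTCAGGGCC in 7, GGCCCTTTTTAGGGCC in 2 and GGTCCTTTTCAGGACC in 2. No gene of another class had these 3 forms.

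Copies of a class are close in their coding sequence, which bears on every value of a single copy below. Each of the 12 H3 genes was at least 98% identical to its nearest copy over the coding sequence, as were 12 of 17 H2A and 12 of 17 H2B genes. H4 genes differed more between copies at silent positions, and 4 of 13 reached that identity. The first 90 coding bases of 7 H4 genes are shown because these genes differed in how they moved with dose. Capitals mark the 24 positions at which the 7 differ.
Hist1h4c (chr13:23698360-23698449, - strand): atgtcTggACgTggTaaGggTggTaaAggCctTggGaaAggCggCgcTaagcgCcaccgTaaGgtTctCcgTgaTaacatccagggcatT
Hist1h4d (chr13:23581602-23581691, + strand): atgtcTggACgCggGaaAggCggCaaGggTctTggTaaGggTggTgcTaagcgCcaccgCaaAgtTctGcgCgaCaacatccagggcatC
Hist1h4h (chr13:23531115-23531204, + strand): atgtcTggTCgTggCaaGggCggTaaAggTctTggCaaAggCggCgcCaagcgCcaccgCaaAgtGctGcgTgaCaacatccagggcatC
Hist1h4f (chr13:23551554-23551643, - strand): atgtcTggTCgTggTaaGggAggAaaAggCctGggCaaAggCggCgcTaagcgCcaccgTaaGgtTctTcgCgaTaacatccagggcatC
Hist1h4j (chr13:21735096-21735185, + strand): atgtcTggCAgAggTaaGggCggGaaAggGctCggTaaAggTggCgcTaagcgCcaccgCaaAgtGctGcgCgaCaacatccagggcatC
Hist1h4k (chr13:21750416-21750505, - strand): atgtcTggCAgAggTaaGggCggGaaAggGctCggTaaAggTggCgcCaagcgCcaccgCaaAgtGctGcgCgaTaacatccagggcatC
Hist4h4 (chr6:136804290-136804379, - strand): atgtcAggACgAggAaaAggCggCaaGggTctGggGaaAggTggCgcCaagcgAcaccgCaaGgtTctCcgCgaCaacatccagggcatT
Over the whole coding sequence Hist1h4j and Hist1h4k differed at 5 positions (98.4% identity). Hist4h4 lay farthest from any other copy, with 40 differences from Hist1h4c (87.2% identity). Hist1h4m and Hist1h4n were identical, as were Hist2h2aa1 and Hist2h2aa2. The sources used here do not give how the authors' counting divided reads between such copies, so values of single copies are uncertain. A class sum is unaffected by this division only between copies of like length. Annotated lengths differ within a class, for H4 from 312 bases (Hist1h4k) to 2863 bases (Hist4h4). Hist1h2bq and Hist1h2br had equal values in all 24 libraries.

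Upstream sequences were read from RefSeq (GRCm38.p6), where 61 of the 68 genes had a promoter window of 250 bases before to 50 after the start, because genes of 1 class share letters there. The CCAAT-type string CCAATCA, searched on both strands, stood in 36 of 61 windows, against 7.82% of all 32851 promoters. It was in 5 of 5 H1 windows, 13 of 18 of H2A, 12 of 16 of H2B, 6 of 10 of H3 and 0 of 12 of H4. The H1 box AAACACA stood in 4 of 5 H1 windows and in 4 others (7.18% of all promoters). The octamer ATTTGCAT stood in 7 H2A and 6 H2B windows and in no other class (1.74% of all promoters). TTTCGCGC was in 9 windows, 5 of H2A and 4 of H2B (0.323% of all promoters), and TATAAA in 34 (13.6%). Matches can overlap other strings and are descriptions of letters only. These 120 bases before the start belong to 3 of the genes whose levels rose at 3.5 g/L, with capitals for the strings named above. All 3 hold CCAATCA, but H4 genes that rose at that dose, such as Hist1h4h and Hist1h4f, had none in their windows. No H2A or H2B gene rose at that dose. Any link of the strings to dose was not tested.
Hist1h1c (chr13:23738687-23738806, + strand): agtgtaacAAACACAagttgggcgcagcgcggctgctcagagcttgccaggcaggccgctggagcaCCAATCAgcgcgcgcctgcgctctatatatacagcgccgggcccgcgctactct
Hist1h1e (chr13:23622559-23622678, - strand): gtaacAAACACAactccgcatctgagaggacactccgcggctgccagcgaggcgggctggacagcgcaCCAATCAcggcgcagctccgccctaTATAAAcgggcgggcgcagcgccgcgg
Hist1h3h (chr13:21717508-21717627, + strand): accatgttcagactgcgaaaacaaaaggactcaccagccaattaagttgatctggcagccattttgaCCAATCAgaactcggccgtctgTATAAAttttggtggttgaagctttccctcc

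Expression is given as RPKM, reads scaled to the length of the gene model and to the mapped reads of the library, as the authors deposited it. RPKM is a level per length, but the gene models the authors used are not known, so levels of different genes are compared only roughly. Averaged over the 24 libraries, H4 genes held 42.7% of the summed RPKM of all 68 genes, H2B 20.5%, H1 18.5%, H2A 9.21% and H3 9.18%. A few copies led each class. Hist1h1e held 45.7% of the H1 sum, Hist2h2aa1 49.5% of H2A and Hist1h2bc 49.3% of H2B. Among the H3 genes Hist1h3e was highest, with 24.4%, and the H4 sum was led by Hist1h4c (24.6%), Hist1h4h (20.5%) and Hist1h4d (19.9%).

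Of the 68 genes, 58 reached 0.5 RPKM in at least 6 libraries and were tested. All 12 H3 and all 13 H4 genes passed this filter, with 5 of 6 H1, 15 of 18 H2A and 13 of 19 H2B genes. The 10 that did not pass were Hist1h1t, Hist1h2aa, Hist1h2an, Hist1h2ap, Hist1h2ba, Hist1h2bp, Hist1h2bq, Hist1h2br, Hist3h2ba and Hist3h2bb-ps. Hist1h1t, Hist1h2ba and Hist1h2aa encode testis histones. Hist1h2aa was listed at 0 in every library and Hist1h2ba in 18 of 24, while Hist1h1t reached at most 0.190 RPKM.

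Libraries agreed closely within a dose (r of log2 values 0.979 to 0.995 over 60 pairs). Relative depth ran from 0.951 to 1.13. In every class the highest sum of the controls was that of control library 6 (414.5 RPKM over all classes), and the highest sum at 2 g/L was that of library 75 (547.1 RPKM), so counts below are also given without both. Sample titles carry a tag of unstated meaning. Controls are all L1, 1 g/L has 3 L1 and 3 L2 libraries, all libraries of 2 g/L are L2 and all of 3.5 g/L are L3, so at 3.5 g/L dose and tag cannot be told apart. These are bulk samples, in which fewer cells of a type and less RNA per cell cannot be told apart.

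Summed over a class, histone RNA averaged higher at 2 g/L than in controls in all 5 classes, while at 3.5 g/L H1 was highest of all doses and H2A and H2B were near control. The H1 sum averaged 56.9 ± 9.28 RPKM in controls, 76.9 ± 9.03 at 1 g/L, 73.1 ± 9.33 RPKM at 2 g/L and 93.9 ± 13.5 RPKM at 3.5 g/L (SD, n = 6 each). All 6 libraries at 3.5 g/L lay above every control, as did 5 of 6 at 1 g/L and 5 of 6 at 2 g/L. The H4 sum averaged 148 ± 14.0, 171 ± 18.2, 195 ± 17.8 and 179 ± 12.6 RPKM over the same order of doses (SD, n = 6 each). All 6 libraries at 2 g/L exceeded every control, against 3 of 6 at 1 g/L and 5 of 6 at 3.5 g/L.

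H3 sums were 28.6 ± 7.41 RPKM in controls, 36.2 ± 7.31 at 1 g/L, 46.2 ± 9.47 RPKM at 2 g/L and 38.5 ± 5.49 RPKM at 3.5 g/L (SD, n = 6 each). H2A sums were 34.8 ± 6.00, 37.9 ± 3.32, 44.5 ± 8.32 and 32.7 ± 2.83 RPKM, and H2B sums 78.0 ± 9.77, 80.8 ± 8.66, 96.4 ± 12.1 and 78.0 ± 12.1 RPKM, in the same order of doses (SD, n = 6 each). For H2A 1 library at 2 g/L exceeded every control, library 75, and for H2B 4 did. Over all 68 genes the mean sum was 1.16 times that of controls at 1 g/L, 1.31 times at 2 g/L and 1.22 times at 3.5 g/L. With median-ratio scaling of libraries these were 1.11, 1.16 and 1.10 times.

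**Figure D1:**
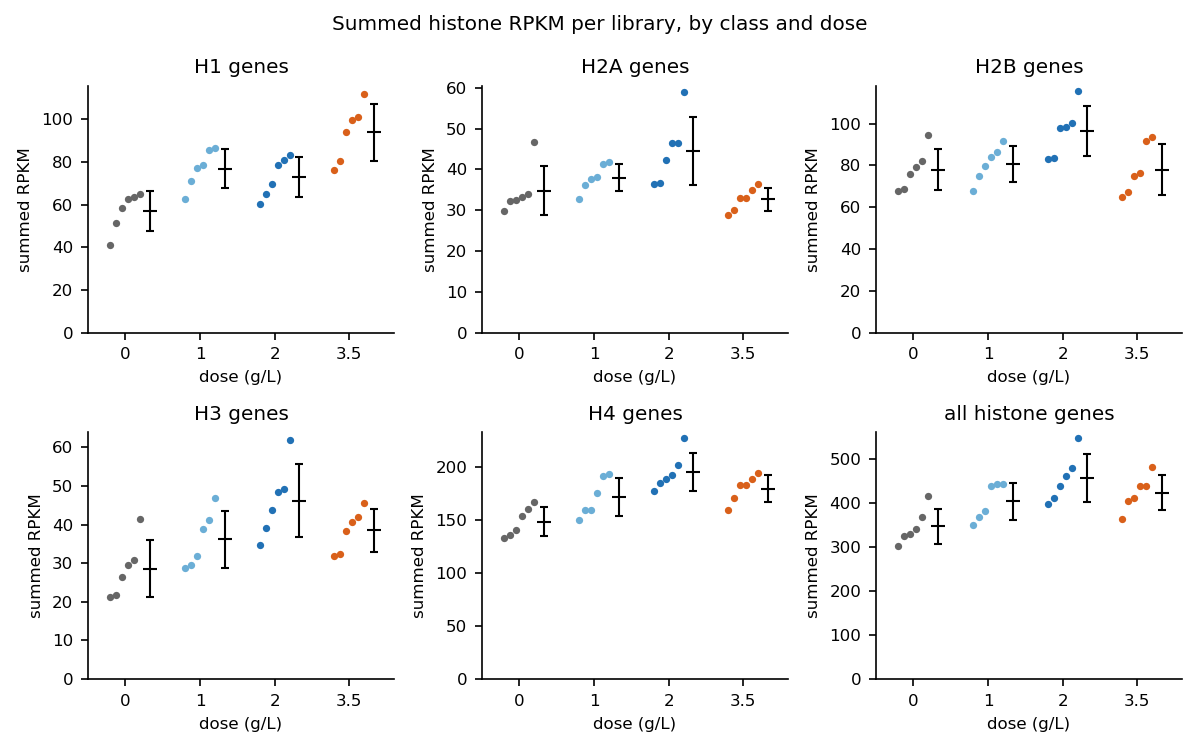
Summed RPKM (vertical axes) of the histone genes of each class in every library (points) by DCA dose in g/L (horizontal axes), with bars for the mean ± SD of 6 libraries. The H1 sum averaged 93.9 RPKM at 3.5 g/L, above all other doses, while the H2A and H2B means were highest at 2 g/L.

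Gene by gene, histone genes rose most often at 2 g/L. In livers at 2 g/L 34 of the 58 tested genes rose over control and none fell (limma, adjusted p under 0.05), which is 58.6%, while 41.9% of all 6540 tested genes rose and 10% fell (51.9% called in all). With an unadjusted p under 0.05, 39 were higher and 0 lower. At 1 g/L 4 rose, or 6.90%, against 8.35% of all genes, and none fell, against 3.03% (11.4% called in all; 15 higher and 0 lower at an unadjusted p under 0.05). At 3.5 g/L 15 rose, or 25.9%, against 38.6% of all genes, and 4 fell, or 6.90%, against 12.9% (51.5% called in all). All 6 libraries of a dose lay above all 6 controls for 1 of the 58 genes at 1 g/L (Hist1h1d), for 12 at 2 g/L and for 8 at 3.5 g/L, and for none did all lie below. These are 1.72%, 20.7% and 13.8% of the 58, where 3.01%, 20.2% and 22% of all 6540 tested genes lay above all controls and 1.61%, 3.1% and 5.86% lay below. For the 3 doses in rising order, the 58 genes had median log2 folds of 0.15, 0.41 and 0.12, and all genes had 0.05, 0.12 and 0.10. The difference between the shares of histone genes and of all genes was not tested.

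Treated doses were also compared with each other. Set against 1 g/L, 15 genes rose and 1 fell at 2 g/L, where 22.7% of all genes rose and 5.63% fell (28.4% called in all). Set against 2 g/L, 2 rose and 10 fell at 3.5 g/L, or 3.45% and 17.2%, where 4.79% of all genes rose and 5.54% fell (10.3% called in all). The 2 that rose were Hist1h1c and Hist1h1e. The 10 that fell were Hist1h2ad, Hist1h2ae, Hist1h2ao and Hist2h2aa1 of H2A, Hist1h2be, Hist1h2bj and Hist1h2bn of H2B, Hist1h3g and Hist2h3c2 of H3, and Hist4h4. Of these, Hist1h2ae passed the filter on low values only through its 2 g/L libraries. Both control 6 and 2 g/L 75 were picked for their high histone sums, so counts without them are not an independent check. Leaving out both gave 9 genes that rose at 1 g/L and 32 at 2 g/L over control, with none that fell. Of all genes 6.86% and 36.4% then rose in these comparisons. The 3.5 g/L livers had 19 that rose and 1 that fell over control, where 37.9% of all genes rose and 11.8% fell. Without both, 12 rose and none fell at 2 g/L against 1 g/L (limma), and 2 rose and 4 fell at 3.5 g/L against 2 g/L. Of all genes 17.2% rose in the first of these comparisons, and 3.99% rose and 2.94% fell in the second.

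The counts at 1 and 2 g/L were lower with the tag as a term. With the tag as a term, no histone gene was called at 1 g/L over control (limma, 4 higher and 1 lower at an unadjusted p under 0.05), while 2.63% of all genes were. Of the 58 genes 4 rose at 2 g/L over control, or 6.90%, against 10.6% of all genes. They were Hist1h2ai (log2 fold 1.04), Hist1h4k (1.03), Hist1h4b (0.79) and Hist1h4h (0.57). For 2 g/L against 1 g/L Hist1h4b (0.49) and Hist1h4h (0.28) rose and Hist1h1e (-0.37) fell. In this fit the tag is estimated only from the 3 L1 and 3 L2 libraries at 1 g/L, so SEs are larger. At 2 g/L over control they were 0.13 for Hist1h4h and 0.29 for Hist1h4k. A lost call therefore does not by itself show a smaller change. At 2 g/L over control Hist1h1c lost its call with a smaller log2 fold (0.13) and Hist1h3i with a larger one (0.54). The contribution of the tag to the rest was not tested beyond this fit. Scaling each library by its median ratio took the median of all genes to about 0 at every dose, and then 27 genes rose and 1 fell at 2 g/L over control, and 13 rose and 6 fell at 3.5 g/L in place of 15 and 4. Of all genes 21.3% then rose and 21.1% fell at 2 g/L, and 23.5% rose and 23.3% fell at 3.5 g/L. For 2 g/L against 1 g/L it gave 9 and 2 in place of 15 and 1, where 12% of all genes rose and 10.7% fell.

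**Figure D2:**
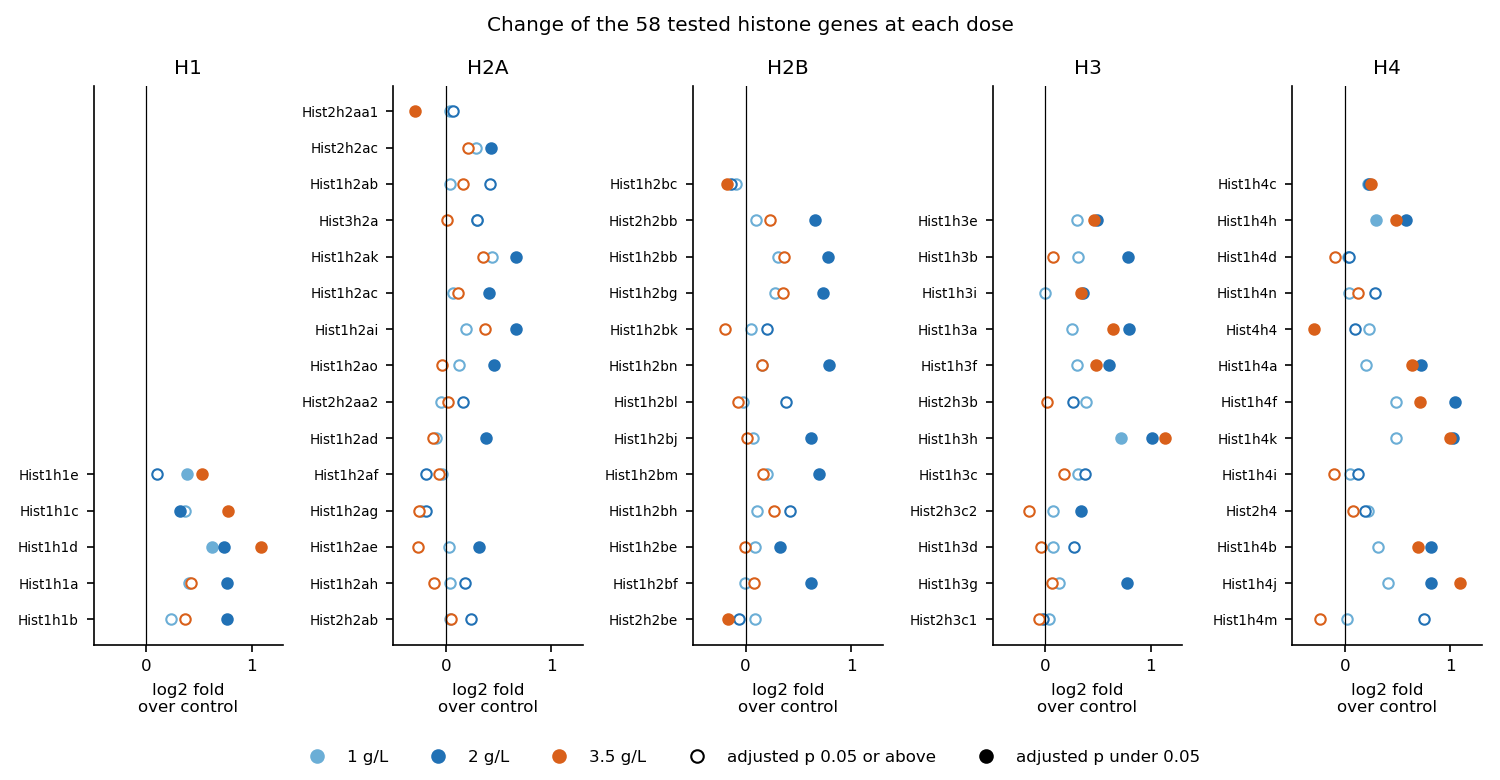
Log2 fold over control on the log2(RPKM + 1) scale of each of the 58 tested histone genes at 1, 2 and 3.5 g/L, ordered by class, with filled points for an adjusted p under 0.05. There are 4 filled points for 1 g/L, 34 for 2 g/L and 19 for 3.5 g/L, and 4 of the last lie below 0.

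H1 was the class in which the abundant copies were highest at 3.5 g/L. At 1, 2 and 3.5 g/L 2, 4 and 3 of its 5 tested genes rose over control and none fell. Of all genes 8.35%, 41.9% and 38.6% rose at these doses, and 3.03%, 10% and 12.9% fell. Hist1h1d (chr13:23553262-23560686) was read at 5.29, 7.89 and 8.56 RPKM (lowest, median and highest of 6 libraries) in controls, 9.53, 11.8 and 15.6 RPKM at 1 g/L, 9.47, 13.8 and 15.7 RPKM at 2 g/L, and 13.5, 17.0 and 21.6 RPKM at 3.5 g/L. No treated library overlapped the controls. Its log2 fold over control was 0.63 ± 0.13 at 1 g/L (SE; limma, adjusted p = 0.00485), 0.73 ± 0.13 at 2 g/L (adjusted p = 9.17e-05) and 1.09 ± 0.13 at 3.5 g/L (adjusted p = 4.3e-07).

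Hist1h1c (chr13:23738808-23740367) encodes H1.2, a common linker histone of somatic cells. Its values were 12.0, 17.6 and 20.0 RPKM in controls, 18.7, 21.3 and 25.4 RPKM at 1 g/L, 18.0, 20.8 and 24.5 RPKM at 2 g/L, and 22.2, 29.7 and 36.3 RPKM at 3.5 g/L, in the same order of lowest, median and highest. Only the 3.5 g/L libraries all lay above the controls. It rose by 0.77 ± 0.12 at 3.5 g/L over control (limma, adjusted p = 1.35e-05) and by 0.46 ± 0.12 at 3.5 g/L over 2 g/L (adjusted p = 0.0196). Its log2 fold at 2 g/L over control was 0.32 ± 0.12 (adjusted p = 0.0335), and at 1 g/L it was 0.37 ± 0.12 and missed the threshold (adjusted p = 0.0526). Median-ratio scaling took the 2 g/L value to 0.15 (limma, adjusted p = 0.34).

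Hist1h1e (chr13:23620629-23622558), the most abundant H1 gene, did not follow the order of dose. It was read at 19.9, 30.1 and 32.9 RPKM in controls, 30.3, 38.4 and 41.3 RPKM at 1 g/L, 25.9, 31.0 and 33.3 RPKM at 2 g/L, and 35, 41.4 and 46.2 RPKM at 3.5 g/L. Every 3.5 g/L library exceeded every control and every 2 g/L library, while 2 g/L overlapped the controls. Its log2 fold over control was 0.38 ± 0.10 at 1 g/L (limma, adjusted p = 0.0161), 0.10 ± 0.10 at 2 g/L (adjusted p = 0.419) and 0.53 ± 0.10 at 3.5 g/L (adjusted p = 0.000111). It fell by 0.28 at 2 g/L against 1 g/L (SE 0.10; adjusted p = 0.0355) and rose by 0.43 at 3.5 g/L against 2 g/L (adjusted p = 0.00819).

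The 2 scarcer H1 genes, Hist1h1a and Hist1h1b, were called at 2 g/L only, with log2 folds over control of 0.76 ± 0.21 and 0.77 ± 0.18 (limma, adjusted p = 0.00383 and 0.000971). At 1 g/L the H1 sum was 62.6 to 78.7 RPKM in the 3 libraries tagged L1 and 77.0 to 86.5 RPKM in the 3 tagged L2. Calls of H1 genes at 1 g/L were lost with the tag as a term, where the log2 fold of Hist1h1d was 0.49 (limma, adjusted p = 0.103) and of Hist1h1e 0.30 (adjusted p = 0.195). Some calls also rested on single libraries. The Hist1h1c call at 2 g/L was lost without control 4 or 5, or 2 g/L 73, 75 or 78 (limma, adjusted p up to 0.105), and its call at 3.5 g/L over 2 g/L without 3.5 g/L 99 or 101 (adjusted p up to 0.0524). The fall of Hist1h1e at 2 g/L against 1 g/L was lost without 1 g/L 51, 52, 53 or 54, or 2 g/L 74, 76 or 77 (limma, adjusted p up to 0.0874).

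H2A and H2B genes were called over control at 2 g/L and hardly at the other doses. Over control, 7 of 15 H2A and 8 of 13 H2B genes rose at 2 g/L and none fell, with median log2 folds of 0.31 and 0.62. The H2A share, 46.7%, was near the 41.9% of all genes that rose at 2 g/L, while 10% of all genes fell. The shares of all genes were 8.35% that rose and 3.03% that fell at 1 g/L, and 38.6% and 12.9% at 3.5 g/L. At 1 g/L none of either class was called (limma; at an unadjusted p under 0.05, 3 H2A genes were higher and no H2B gene was called). None rose at 3.5 g/L, while 1 H2A gene and 2 H2B genes fell (limma; at an unadjusted p under 0.05, 0 H2A genes and 1 H2B gene were higher). The H2A median at 3.5 g/L was 0.01 as deposited and -0.08 with median-ratio scaling. The H2A genes that rose at 2 g/L were Hist1h2ac, Hist1h2ad, Hist1h2ae, Hist1h2ai, Hist1h2ak, Hist1h2ao and Hist2h2ac. Those of H2B were Hist1h2bb, Hist1h2be, Hist1h2bf, Hist1h2bg, Hist1h2bj, Hist1h2bm, Hist1h2bn and Hist2h2bb. Hist1h2ae reached 0.5 RPKM in 9 libraries and passed the filter only through those at 2 g/L, so its calls carry little weight. Its medians were 0.343 RPKM in controls and 0.784 RPKM at 2 g/L.

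Hist2h2bb, the second most abundant H2B gene, was read at 6.02, 6.98 and 10.6 RPKM in controls, 5.25, 7.68 and 13.4 RPKM at 1 g/L, 9.03, 13.0 and 14.5 RPKM at 2 g/L, and 7.54, 8.09 and 11.6 RPKM at 3.5 g/L. The 2 g/L libraries overlapped the controls only through control 6, at 10.6 RPKM. It rose at 2 g/L by 0.65 ± 0.17 over control (limma, adjusted p = 0.00212) and by 0.55 ± 0.17 over 1 g/L (adjusted p = 0.0146), and its log2 fold at 3.5 g/L over control was 0.23 (adjusted p = 0.249). Hist1h2bb (chr13:23746734-23747241) averaged 4.71 ± 1.04 RPKM in controls, 6.31 ± 2.52 at 1 g/L, 8.92 ± 2.27 RPKM at 2 g/L and 6.5 ± 1.98 RPKM at 3.5 g/L (SD, n = 6 each). Its log2 fold over control was 0.78 ± 0.19 at 2 g/L (limma, adjusted p = 0.00182) and 0.37 ± 0.19 at 3.5 g/L (adjusted p = 0.118). Hist2h2ac averaged 6.36 ± 1.56 RPKM at 2 g/L and 4.43 ± 0.836 RPKM in controls (SD, n = 6 each) and rose by 0.43 ± 0.12 (limma, adjusted p = 0.00565). Library 75 at 2 g/L, with 9.45 RPKM, stood above the rest of its dose. Hist1h2ab, next in level, was not called at any dose, with a log2 fold of 0.41 ± 0.18 at 2 g/L (limma, adjusted p = 0.062).

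The most abundant copies of both classes did not rise. Hist1h2bc (chr13:23684199-23692908) was read at 34.3, 38.4 and 43.9 RPKM at 3.5 g/L, against 38.7, 43.0 and 50.0 RPKM in controls, and the groups overlapped. It fell at 3.5 g/L by 0.17 (SE 0.07; limma, adjusted p = 0.0428), and its log2 fold at 2 g/L was -0.14 (adjusted p = 0.11), or -0.31 with median-ratio scaling, where it was called (adjusted p = 0.00133). Its call at 3.5 g/L was lost without control 4, 6 or 8, or 3.5 g/L 97, 100, 101 or 102 (limma, adjusted p up to 0.114). Hist2h2aa1 (chr3:96245497-96246082) was read at 13.8, 15.2 and 18.5 RPKM at 3.5 g/L, against 16.6, 18.2 and 23.3 RPKM in controls. It fell by 0.29 at 3.5 g/L over control (SE 0.10; limma, adjusted p = 0.014) and by 0.36 against 2 g/L (adjusted p = 0.0188). The comparison with 2 g/L gave -0.28 without 2 g/L 75 (adjusted p = 0.0526).

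The other genes that fell at 3.5 g/L over control, Hist2h2be and Hist4h4, are named because the count is small, after their values were seen. Hist2h2be had a log2 fold of -0.17 ± 0.06 (limma, adjusted p = 0.0359) at a level under 1.1 RPKM. Hist4h4 had 6.82, 7.63 and 8.35 RPKM at 3.5 g/L, against 7.13, 9.41 and 13.7 RPKM in controls, a log2 fold of -0.30 ± 0.12 (limma, adjusted p = 0.0456). The count of histone genes that fell at 3.5 g/L was 1 in place of 4 without control 6, without control 8, without 3.5 g/L 101, and with no filter on low values.

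H2A and H2B genes often stand head to head and share the sequence between their start sites. There were 13 such pairs with at most 500 bases between GENCODE start sites, each of 1 H2A and 1 H2B gene, 172 to 305 bases apart. In 8 pairs both genes were tested. Both rose at 2 g/L in 3 pairs, 1 of the pair rose in 4, and neither did in 1. At that dose 58.6% of the tested histone genes and 41.9% of all genes rose. Whether partners moved together more often than unpaired genes was not tested. Among the 3 pairs is that of Hist1h2ae, which passed the filter on low values only through its 2 g/L libraries. Where both rose, the log2 folds were 0.66 and 0.79 for Hist1h2ak and Hist1h2bn, 0.31 and 0.73 for Hist1h2ae and Hist1h2bg, and 0.38 and 0.62 for Hist1h2ad and Hist1h2bf. The log2(RPKM + 1) scale understates changes of low genes, so partners at different levels cannot be ranked by these values. Hist1h2ae averaged 0.442 RPKM in controls and 0.814 RPKM at 2 g/L, and Hist1h2bg averaged 4.53 and 8.19 RPKM. Hist1h2ac rose by 0.41 where its partner Hist1h2bc had -0.14, and Hist2h2ac rose by 0.43 where Hist2h2be had -0.07. The sequence shared by Hist1h2bf and Hist1h2ad, of which both rose, is shown, with CCAATCA and its reverse complement in capitals.
Between the RefSeq starts of Hist1h2bf and Hist1h2ad (chr13:23574208-23574380, + strand): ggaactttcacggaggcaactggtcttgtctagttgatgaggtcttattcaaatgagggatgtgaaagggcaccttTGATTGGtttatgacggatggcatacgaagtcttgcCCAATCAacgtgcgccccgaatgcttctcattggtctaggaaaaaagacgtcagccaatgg

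H3 genes rose at 2 g/L in 8 of 12 cases and at 3.5 g/L in 5 of 12, and none fell. Of all genes 41.9% rose and 10% fell at 2 g/L. The H3 share at 3.5 g/L, 41.7%, was near the 38.6% of all genes that rose there, while 12.9% of all genes fell. The 8 were Hist1h3a, Hist1h3b, Hist1h3e, Hist1h3f, Hist1h3g, Hist1h3h, Hist1h3i and Hist2h3c2, and the 5 were Hist1h3a, Hist1h3e, Hist1h3f, Hist1h3h and Hist1h3i. At 1 g/L only Hist1h3h rose, where 8.35% of all genes did. Hist1h3h (chr13:21717659-21718069) was low, with 0.365, 1.32 and 1.71 RPKM in controls, 0.866, 3.24 and 3.45 RPKM at 1 g/L, 2.44, 3.24 and 4.33 RPKM at 2 g/L, and 2.37, 3.69 and 4.70 RPKM at 3.5 g/L. All libraries at 2 and 3.5 g/L exceeded every control, while 1 g/L overlapped the controls. Its log2 fold over control was 0.71 ± 0.20 at 1 g/L (limma, adjusted p = 0.0243), 1.01 ± 0.20 at 2 g/L (adjusted p = 0.000223) and 1.14 ± 0.20 at 3.5 g/L (adjusted p = 5.09e-05). At 1 g/L the 3 libraries tagged L2 had 3.18 to 3.45 RPKM and the 3 tagged L1 had 0.866 to 3.45 RPKM, and the log2 fold with the tag as a term was 0.40 (limma, adjusted p = 0.369).

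Hist1h3e, the most abundant H3 gene, averaged 7.12 ± 1.51 RPKM in controls, 8.90 ± 1.11 at 1 g/L, 10.4 ± 2.07 RPKM at 2 g/L and 10.1 ± 0.805 RPKM at 3.5 g/L (SD, n = 6 each). It rose by 0.49 ± 0.11 at 2 g/L (limma, adjusted p = 0.000977) and 0.47 ± 0.11 at 3.5 g/L (adjusted p = 0.00143). Hist1h3b rose at 2 g/L alone, with 3.86, 6.35 and 10.02 RPKM against 1.92, 3.07 and 6.13 RPKM in controls and a log2 fold of 0.78 ± 0.26 (limma, adjusted p = 0.0153). Its log2 fold at 3.5 g/L over control was 0.07 (adjusted p = 0.841). Hist1h3i stood close to the threshold, at 0.35 ± 0.14 for 2 g/L (limma, adjusted p = 0.0399) and 0.34 ± 0.14 for 3.5 g/L (adjusted p = 0.0487). With median-ratio scaling neither was called (0.21 and 0.22; limma, adjusted p = 0.223 and 0.204).

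Calls of these H3 genes that turned on 1 library were those of Hist1h3h at 1 g/L and of Hist1h3i. Hist1h3h lost its call at 1 g/L without control 5 or 7, or 1 g/L 51, 52, 53 or 54 (limma, adjusted p up to 0.0614). Hist1h3i lost its call at 2 g/L without control 3, 4 or 5, or 2 g/L 73, 75 or 77 (limma, adjusted p up to 0.118). Its call at 3.5 g/L was lost in 15 of the 24 fits that left out 1 library, with an adjusted p up to 0.118 (limma), namely without control 3, 4, 5 or 8, 1 g/L 49 or 50, 2 g/L 73, 74, 77 or 78, or any 3.5 g/L library but 97.

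Of the 3 most abundant H4 genes, Hist1h4c and Hist1h4h rose at 2 and 3.5 g/L over control and Hist1h4d was not called. The same count, 7 of 13, rose at 2 g/L and at 3.5 g/L over control, and both sets held Hist1h4a, Hist1h4b, Hist1h4c, Hist1h4f, Hist1h4h, Hist1h4j and Hist1h4k. These counts are 53.8% of the 13, where 41.9% of all genes rose at 2 g/L and 38.6% at 3.5 g/L. Of the H4 genes Hist4h4 alone fell, at 3.5 g/L, where 12.9% of all genes fell. Hist1h4h (chr13:23531050-23531519) was read at 23.9, 28.2 and 30.5 RPKM in controls, 30.1, 34.1 and 37.6 RPKM at 1 g/L, 38.0, 41.5 and 47.5 RPKM at 2 g/L, and 34.0, 40.2 and 42.2 RPKM at 3.5 g/L. Neither 2 nor 3.5 g/L overlapped the controls, and 2 g/L did not overlap 1 g/L. Its log2 fold over control was 0.29 ± 0.07 at 1 g/L (limma, adjusted p = 0.0118), 0.57 ± 0.07 at 2 g/L (adjusted p = 9.84e-07) and 0.49 ± 0.07 at 3.5 g/L (adjusted p = 5.61e-06). It rose at 2 g/L over 1 g/L by 0.28 ± 0.07 (adjusted p = 0.0049), or 0.18 with median-ratio scaling, where the call was lost (limma, adjusted p = 0.051).

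Hist1h4k (chr13:21750194-21750505) was read at 2.78, 3.91 and 4.30 RPKM in controls, 4.15, 5.60 and 6.90 RPKM at 1 g/L, 6.80, 7.70 and 12.1 RPKM at 2 g/L, and 5.17, 8.98 and 12.0 RPKM at 3.5 g/L. Every library at 2 and 3.5 g/L lay above the controls. It rose by 1.02 ± 0.16 at 2 g/L (limma, adjusted p = 1.69e-05) and 1.00 ± 0.16 at 3.5 g/L (adjusted p = 1.64e-05). Its near copy Hist1h4j (chr13:21735064-21735837), at a lower level, rose by 0.82 ± 0.25 at 2 g/L (limma, adjusted p = 0.0096) and 1.09 ± 0.25 at 3.5 g/L (adjusted p = 0.000945).

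Hist1h4b (chr13:23757013-23757409) was read at 2.20, 2.52 and 4.38 RPKM in controls, 3.00, 3.40 and 4.66 RPKM at 1 g/L, 4.68, 5.53 and 6.94 RPKM at 2 g/L, and 3.79, 5.09 and 6.83 RPKM at 3.5 g/L. The 2 g/L libraries lay above all controls and all 1 g/L libraries, and the highest control, control 6, lay within the range of 3.5 g/L. It rose by 0.82 ± 0.13 at 2 g/L (limma, adjusted p = 1.55e-05), 0.69 ± 0.13 at 3.5 g/L (adjusted p = 8.58e-05) and 0.50 ± 0.13 at 2 g/L over 1 g/L (adjusted p = 0.00465). Hist1h4f (chr13:23551258-23551648) averaged 4.20 ± 1.27 RPKM in controls, 6.34 ± 1.83 at 1 g/L, 9.82 ± 2.96 RPKM at 2 g/L and 7.55 ± 2.09 RPKM at 3.5 g/L (SD, n = 6 each). Hist1h4f rose by 1.04 ± 0.20 at 2 g/L (limma, adjusted p = 0.000162) and by 0.71 ± 0.20 at 3.5 g/L (adjusted p = 0.0049). On the log2(RPKM + 1) scale its value at 2 g/L was the largest of any tested histone gene at that dose. The scale understates changes of low genes such as Hist1h3h, which averaged 1.17 RPKM in controls and 3.31 RPKM at 2 g/L.

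Of the 3 abundant H4 genes, Hist1h4c had 41.0, 44.5 and 48.2 RPKM at 2 g/L, against 34.4, 37.6 and 41.0 RPKM in controls, with the lowest at 2 g/L just above the highest control. It rose by 0.23 ± 0.08 at 2 g/L (limma, adjusted p = 0.0158) and by 0.25 ± 0.08 at 3.5 g/L (adjusted p = 0.00924), and median-ratio scaling ended both calls (0.06 and 0.10; adjusted p = 0.531 and 0.244). Hist1h4d averaged 34.8 ± 3.34 RPKM in controls, 35.4 ± 3.34 at 1 g/L, 35.8 ± 3.82 RPKM at 2 g/L and 32.5 ± 2.20 RPKM at 3.5 g/L (SD, n = 6 each). Its log2 folds over control of 0.02, 0.04 and -0.09 were not called (limma, adjusted p from 0.313 to 0.859). With median-ratio scaling the value at 3.5 g/L was -0.24 and called (limma, adjusted p = 0.0121), and those at 1 and 2 g/L were below 0.

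**Figure D3:**
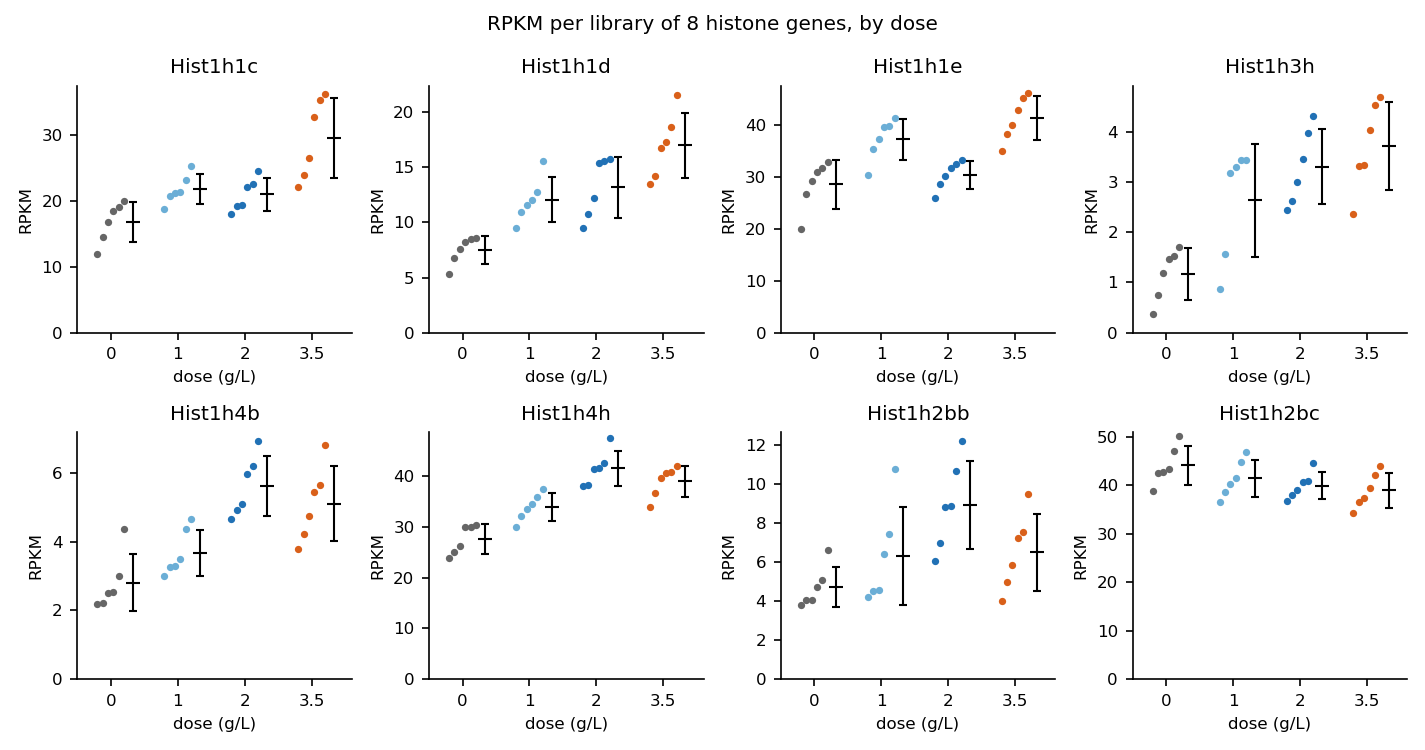
RPKM (vertical axes) of 8 histone genes in each library (points) by DCA dose in g/L (horizontal axes), with bars for the mean ± SD of 6 libraries. Hist1h1d lies above all controls in every treated library, Hist1h1e is lower at 2 g/L than at 1 and 3.5 g/L, and Hist1h2bc stays between 34.3 and 50.0 RPKM at all doses.

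By cluster, 20 of 28 tested genes of the distal Hist1 block and 11 of 18 of the proximal block rose at 2 g/L over control, with 3 of 10 in Hist2 and neither the 1 tested gene of Hist3 nor Hist4h4, where 41.9% of all genes rose. The 3.5 g/L livers had 11 of 28 that rose and 1 that fell in the distal Hist1 block, and 4 of 18 and 0 in the proximal block (limma). In Hist2 none of 10 rose and 2 fell, the tested gene of Hist3 was not called, and Hist4h4 fell. The distal share that rose was near that of all genes, of which 38.6% rose and 12.9% fell. Genes were also split by how far their longest GENCODE model runs past the stop codon, since a long tail lies beyond the stem-loop. At 2 g/L 25 of 38 genes with a tail under 300 bases rose (median log2 fold 0.62), as did 9 of 20 with a longer one (median 0.29), where 41.9% of all genes rose. At 3.5 g/L against 2 g/L none of the 38 rose and 7 fell, while 2 of the 20 rose and 3 fell (limma), where 4.79% of all genes rose and 5.54% fell. The 2 were Hist1h1c and Hist1h1e. The model of Hist1h2be overlaps part of Hist1h1e and may take in other genes, so some of its reads may be theirs.

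Genes of the cell cycle, in which these histones are made, were set beside them, along with genes that act on histones. Of all genes 8.35%, 41.9% and 38.6% rose over control at 1, 2 and 3.5 g/L, and 3.03%, 10% and 12.9% fell. Of 22 tested S-phase genes, 16 rose and 1 fell at 2 g/L over control, 0 rose and 2 fell at 3.5 g/L, and none was called at 1 g/L (limma; 4 higher and 0 lower at an unadjusted p under 0.05 at 1 g/L, 1 higher and 3 lower at 3.5 g/L). Against 2 g/L 13 of the 22 fell at 3.5 g/L and none rose, where 5.54% of all genes fell and 4.79% rose. The largest S-phase changes at 2 g/L were those of the replication factor Mcm10 (-1.10 ± 0.27), the transcription factor E2f8 (0.67 ± 0.23) and cyclin A, Ccna2 (0.54 ± 0.17). Of 20 genes of G2 and mitosis 16 rose at 2 g/L, led by Cdc20 (1.21 ± 0.27), Ccnb1 (0.97 ± 0.24) and Cdca3 (0.92 ± 0.22), and 7 rose at 3.5 g/L. At 1 g/L none was called, nor at 3.5 g/L against 2 g/L (limma; at an unadjusted p under 0.05, 0 at 1 g/L, and 0 higher and 2 lower at 3.5 g/L against 2 g/L). The filter on low values can be met by the 6 libraries of 1 dose alone. The 29 G2 and mitosis genes in the data summed to a median of 11.2 RPKM in controls and 26.1 RPKM at 2 g/L. Whether some of the 20 passed only through their 2 g/L libraries was not tested. With the tag as a term 1 S-phase gene and no G2 or mitosis gene rose at 2 g/L over control (limma; 1 and 0 at an unadjusted p under 0.05). The fit with the tag has larger SEs.

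Replication-independent variants were called in 1 of 9 cases at 1 g/L, 5 of 9 at 2 g/L and 5 of 9 at 3.5 g/L, of which 1 fell. These shares are near those of all genes, of which 11.4%, 51.9% and 51.5% were called. H3f3b, which encodes H3.3, averaged 40.5 ± 2.77 RPKM at 2 g/L and 25 ± 1.60 RPKM in controls (SD, n = 6 each) and rose by 0.68 ± 0.06 (limma, adjusted p = 8.49e-09). The centromeric H3 gene Cenpa rose by 0.40 ± 0.13 and the macroH2A gene H2afy by 0.27 ± 0.05 at 2 g/L. The replication-independent linker histone gene H1f0, named after its values were seen because Hist1h1c and Hist1h1e rose at 3.5 g/L, averaged 22.9 ± 3.76 RPKM at 3.5 g/L and 17.1 ± 2.19 RPKM in controls (SD, n = 6 each). It rose by 0.39 ± 0.10 (limma, adjusted p = 0.00265). Over control, 8.35%, 41.9% and 38.6% of all genes rose at 1, 2 and 3.5 g/L. Genes of histone mRNA transcription and end processing rose in 5, 11 and 9 of 17 cases at 1, 2 and 3.5 g/L and none fell. Among them at 2 g/L the cap-binding gene Ncbp1 rose by 0.37 ± 0.06 and the cleavage factor genes Cstf2 by 0.37 ± 0.05 and Cstf1 by 0.35 ± 0.05. Of 14 chaperone and assembly genes 7 rose (50%) and 1 fell at 2 g/L, near the shares of all genes, 41.9% and 10%. Those that rose included Hat1, which acetylates new H4, Chaf1a of the assembly factor CAF-1 and the importin Ipo4. At 3.5 g/L against 2 g/L 2 of the 14 rose, Hira and Hjurp, and 3 fell, Nasp, Hat1 and Chaf1a. In this comparison 4.79% of all genes rose and 5.54% fell. Hat1 fell by 0.48 (SE 0.12) and Chaf1a by 0.24 (SE 0.06), while Hjurp rose by 0.34 and Hira by 0.20. Of 8 transcripts with little poly(A) or held in the nucleus, 1 rose (Airn, 0.29) and 1 fell (Neat1, -0.44) at 2 g/L.

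**Figure D4:**
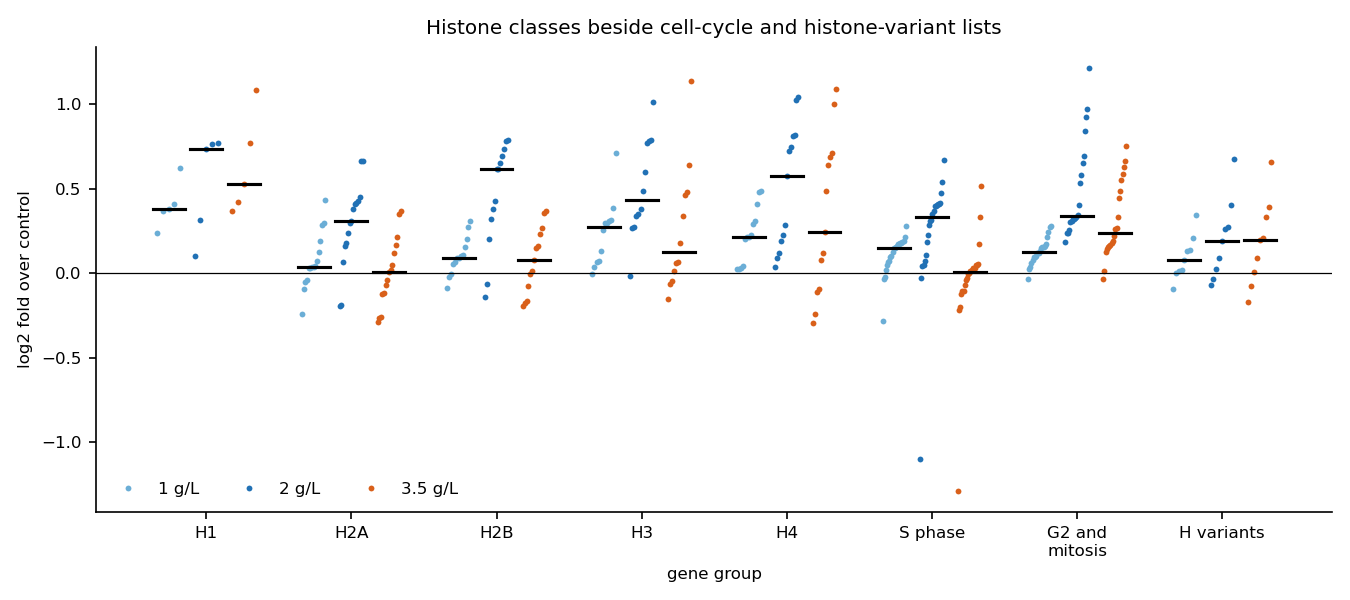
Log2 fold over control on the log2(RPKM + 1) scale of each tested gene (points) at 1, 2 and 3.5 g/L, for the 5 histone classes, S-phase genes, G2 and mitosis genes and histone variants, with a line at the median. The S-phase median is 0.33 at 2 g/L and 0.01 at 3.5 g/L, and the H1 median is 0.73 and 0.53.

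Markers of liver cell types moved with dose beside the histone genes. Over control, 41.9% of all genes rose and 10% fell at 2 g/L, and 38.6% rose and 12.9% fell at 3.5 g/L. All 14 hepatocyte markers were present at every dose. Their summed level was 25080 to 31201 RPKM at 3.5 g/L, against 33136 to 40510 RPKM in controls, and 1 rose and 11 fell, while at 2 g/L 9 fell, led by F2 (-0.94), Cps1 (-0.63) and Gc (-0.56). Erythroid markers summed to 245 to 551 RPKM at 2 g/L and 316 to 1069 RPKM in controls. Of 8 tested, 7 fell at 2 g/L, among them Hba-a2 (-0.91), Hbb-bt (-0.90) and Hbb-b2 (-0.90), and 5 at 3.5 g/L. Hbb-bt and Hbb-b2 had the same log2 fold, SE and adjusted p at 2 g/L (limma), so they may not be separate measurements. Kupffer cell and macrophage markers summed to 76.5 to 104 RPKM at 3.5 g/L and 112 to 162 RPKM in controls, and 10 of 12 fell at 3.5 g/L while none was called at 2 g/L (limma; also 0 at an unadjusted p under 0.05). Endothelial markers had 2 falls of 13 at 2 g/L (Clec1b, -0.23, and Gpr182, -0.21), and stellate cell markers 2 rises of 11 (Lrat, 0.43, and Ngfr, 0.22). Lymphocyte markers summed to at most 9.67 RPKM in any library, with 1 gene tested (Cd4, -0.45 at 2 g/L). Neutrophil and myeloid precursor markers, 2 of them tested and neither called against control (limma; 0 also at an unadjusted p under 0.05), reached 126 RPKM in 2 g/L library 75 and 3.45 to 154 RPKM in controls. In 2 g/L a pair of these 10 genes was listed at 0 in every library. The part of these cells in the histone levels was not tested.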

How the data were processed

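Values were RPKM per gene and library, deposited by the authors in 1 table for all 24 libraries. Build mm10, STAR 2.4, CASAVA and Partek are named, without roles, in the submitters' processing notes. Gene models, treatment of reads that match several copies and use of strand are not given in the sources used here, so overlapping and antisense genes may share reads. Zeros stand in the table as 0.0001 RPKM and were set to 0. The table as held runs in order of symbol to Olfr270, so Slbp, Pcna and other later genes were not analysed here. Dropped were 13 lines with date-like symbols and 1 broken last line.

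The 6540 of 15582 genes that reached 0.5 RPKM in 6 libraries or more were fitted as log2(RPKM + 1) with limma 3.58.1 (R 4.3.3), with 1 mean per dose over all 24 libraries and a trend in the spread. Tests were two-sided, adjusted by Benjamini-Hochberg over all tested genes, with a threshold of 0.05. Log2 folds are differences on this scale and understate changes of low genes. "Rose" and "fell" mean called in this fit. SE is limma's, and SD is over libraries. The fit was also tested on simulated data. Depth, about 28400000 reads per library (quartiles 28100000 to 28500000 over 529 genes), was estimated from steps between low values and annotated lengths.

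Named were, in each class, up to 3 tested genes of highest mean RPKM, per comparison with control up to 5 called genes of largest log2 fold, and from each list up to 3 called genes of largest log2 fold at 2 g/L. The members and lists were chosen with earlier results of these data known. The letter strings (5 reported of 10 tried), the stem-loop pattern, the 300-base and block splits, the sequences printed and the leaving out of both named libraries were chosen after seeing the data. Alternatives were a pseudocount of 0.1, a filter at 1 RPKM, no filter, median-ratio and quantile scaling, the title tag as a term, single-tag libraries, and each library left out. Sequences came from GENCODE M21 (GRCm38) and RefSeq (GRCm38.p6).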

Additional observations from a re-analysis of the deposited data

Results flagged for a closer look

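In 104 groups of 6 libraries, made of named genes and class sums by dose, 5 held a library whose gap to its nearest neighbour, as a share of the group's range, passed Dixon's 95% critical value, and chance gives such a gap in about 1 of 20 groups. Control 6 stood above the other controls for Hist1h4b (4.38 RPKM, next 3.00 RPKM), for Hist2h2bb (10.6 RPKM, next 7.55 RPKM) and for the summed H2A genes (46.7 RPKM, next 34.1 RPKM). At 2 g/L library 75 stood above the rest for Hist2h2ac (9.45 RPKM, next 6.26 RPKM). At 3.5 g/L library 97 stood below the rest for Hist1h3i (3.52 RPKM, next 4.87 RPKM). Library 75 at 2 g/L had a summed S-phase level of 51.4 RPKM, where the median at 2 g/L was 43.9 RPKM, and control 6 had 42.3 RPKM, where the median of controls was 34.5 RPKM. The highest S-phase sum of the controls was that of control 4, at 53.7 RPKM. Its sum over all histone genes was 324.0 RPKM, below the 414.5 RPKM of control 6.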

How the results depend on the processing

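No paired analysis was possible because the doses share no replicate numbers. The fit with the title tag as a term has larger SEs. Its counts of called histone genes over control were 0 at 1 g/L and 4 at 2 g/L (main 4 and 34). For 2 g/L over 1 g/L its count was 3 (main 16). The counts were 0 and 3 with only L1 or only L2 libraries for 1 g/L over control and 2 g/L over 1 g/L. Quantile normalization gave 9 for 2 g/L over 1 g/L. Leaving out both control 6 and 2 g/L 75 gave 9 at 1 g/L over control and 6 at 3.5 g/L over 2 g/L. Both were picked for their high histone sums, which by itself tends to raise the first count and lower the second. What else moved the counts was not tested. With median-ratio scaling the sum of all histone genes at 3.5 g/L was 1.10 times that of controls (1.22 as deposited).

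Leaving out 1 library gave 3 to 7 genes called at 1 g/L over control (7 without control 6), 30 to 40 at 2 g/L, 15 to 20 at 3.5 g/L, 8 to 19 at 2 g/L over 1 g/L (8 without 1 g/L 49, 10 without 2 g/L 75) and 5 to 14 at 3.5 g/L over 2 g/L (5 without 2 g/L 75, 6 without 3.5 g/L 100, 7 without 3.5 g/L 101 and 7 without 3.5 g/L 102). The sum of all histone genes over control ranged from 1.14 to 1.21 at 1 g/L, 1.26 to 1.37 at 2 g/L and 1.19 to 1.27 at 3.5 g/L.

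Every value whose sign turned was uncalled both ways. With median-ratio scaling Hist1h2ab was -0.0016, Hist1h4d was -0.046 and Hist2h2aa1 was -0.035 at 1 g/L over control, Hist1h1e was -0.068, Hist1h4d was -0.13 and Hist2h2aa1 was -0.097 at 2 g/L over control and Hist1h3b was -0.043 at 3.5 g/L over control. Under the same setting Hist1h4c was -0.088, Hist1h4d was -0.083 and Hist2h2aa1 was -0.063 at 2 g/L over 1 g/L and Hist1h3i was 0.0055 at 3.5 g/L over 2 g/L. With quantile normalization Hist2h2aa1 was -0.010 at 1 g/L over control and Hist1h1e was -0.091, Hist1h4d was -0.13 and Hist2h2aa1 was -0.12 at 2 g/L over control. Under the same setting Hist1h3b was -0.044 at 3.5 g/L over control and Hist1h1d was -0.018, Hist1h4c was -0.13, Hist1h4d was -0.13 and Hist2h2aa1 was -0.11 at 2 g/L over 1 g/L. With the tag as a term Hist1h2ab was -0.079, Hist1h3i was 0.087 and Hist2h2bb was -0.049 at 1 g/L over control and Hist1h1e was -0.067 at 2 g/L over control. Under the same setting Hist1h1d was -0.027, Hist1h3h was -0.018 and Hist1h4c was -0.022 at 2 g/L over 1 g/L. The same values, other than that of Hist1h1e, came from only L1 or only L2 libraries. Without both named libraries Hist1h3i was 0.049 at 1 g/L over control and Hist1h4c was -0.015, Hist1h4d was -0.014 and Hist2h2aa1 was -0.040 at 2 g/L over 1 g/L. Under the same setting Hist1h3e was 0.051, Hist1h3i was 0.069 and Hist1h4k was 0.068 at 3.5 g/L over 2 g/L.

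With 1 library left out at a time, the same results ranged as follows. For 1 g/L over control the log2 fold ran from -0.047 to 0.16 for Hist1h2ab, -0.096 to 0.073 for Hist1h3i, -0.011 to 0.063 for Hist1h4d, -0.0026 to 0.091 for Hist2h2aa1 and from -0.035 to 0.20 for Hist2h2bb. For 2 g/L over control the log2 fold ran from 0.0045 to 0.14 for Hist1h1e, 0.0039 to 0.081 for Hist1h4d and from -0.0054 to 0.12 for Hist2h2aa1. For 3.5 g/L over control the log2 fold ran from -0.042 to 0.23 for Hist1h3b. For 2 g/L over 1 g/L the log2 fold ran from 0.049 to 0.19 for Hist1h1d, 0.12 to 0.37 for Hist1h3h, -0.036 to 0.060 for Hist1h4c, -0.023 to 0.056 for Hist1h4d and from -0.040 to 0.080 for Hist2h2aa1. For 3.5 g/L over 2 g/L the log2 fold ran from -0.091 to 0.051 for Hist1h3e, -0.071 to 0.069 for Hist1h3i, -0.015 to 0.065 for Hist1h4c and from -0.12 to 0.094 for Hist1h4k. Single genes at 1 RPKM rest on about 11 reads for a 400-base model, so depth limits their values, and copies that share reads limit every single-copy value.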
